A study of Mus musculus with 2 samples.

Results

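Sned1 (ENSMUSG00000047793), a gene for a secreted extracellular matrix glycoprotein, was examined across the cell classes of dFLEx CDS mouse tumors by single-nucleus RNA-seq. It was 1 of the 19059 genes listed in every count matrix, and was selected on its difference between untreated and Minnelide-treated tumors in fibroblast-like nuclei. That difference is therefore a description, given with no test. The order of its levels across classes is a description too, since the gene was chosen with its pattern known. Mterf4 (ENSMUSG00000026273), which overlaps Sned1 on the opposite strand, was examined beside it.

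Sned1 stands for sushi, nidogen and EGF like domains 1. Its product is secreted into the extracellular matrix and carries a NIDO domain, the domain that it shares with the basement membrane proteins nidogen 1 and nidogen 2, together with EGF-like and fibronectin type III repeats. Matrix glycoproteins of this kind are made largely by mesenchymal cells, and connect collagens, other matrix proteins and the integrin receptors of neighboring cells. Mterf4 encodes a mitochondrial protein that takes part in assembly of the mitochondrial ribosome.

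The dFLEx CDS model is an engineered mouse whose CIC::DUX4 fusion gene, the driver of a rare soft tissue sarcoma, stays silent until both Cre and FLP have acted. Per the study's methods, tumors arose after plasmids with both recombinases under the CAG promoter were electroporated into hind limb muscle, so recombination was restricted by place and not by a cell-type-specific promoter. The untreated group (dFLEx CDS +/-) and the group given 0.42 mg/kg Minnelide, a water-soluble prodrug of triptolide, for 21 days each held 4 matrices, and each matrix was treated as 1 tumor. The labels state the genotype for the untreated group, and give no age for either group. Tumors were numbered 1 to 4 within each group by file order, and the numbers do not pair them.

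The 8 tumors held 18487409 to 73211599 unique molecular identifiers (UMIs) in 5210 to 12615 nuclei, of which 59356 of 72338 were retained. Nuclei of untreated tumor 4 were the shallowest, with a median of 883 UMIs, against 2329 to 4031 in the other 7 tumors. Nucleus barcodes were shared only between tumors of the same number, with 132, 49, 111 and 63 shared barcodes for numbers 1 to 4. Each tumor had 1 pair of bases at barcode positions 8 and 9, the same only in tumors of the same number. Tumors of different numbers therefore could not share a barcode. Which tumors were run together is not stated, and an effect of the run cannot be told apart from one of treatment. Classes were named from marker genes and hold 35844 tumor-like, 6609 fibroblast-like, 6339 myonucleus-like, 3073 endothelial-like, 1354 macrophage-like and 671 mural-like nuclei, while 4789 nuclei of 4 clusters were left unnamed. Levels are given as CPM, the UMIs of a gene in the nuclei of a class in a tumor per 1000000 UMIs of all genes in those nuclei. All p-values measure the spread between these tumors only.

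Fibroblast-like nuclei came from 2 clusters that divided by tumor. Untreated tumor 1 supplied 99.05% of a cluster of 1263 nuclei, which had 12 of 12 fibroblast markers raised and mural, endothelial, macrophage and myonucleus markers raised as well. The other 7 tumors supplied the cluster of 5346 nuclei, which had 11 of 12 fibroblast markers raised and mural markers also raised. Each of the 9 tumor-like clusters drew 93.2% to 99.3% of its nuclei from 1 tumor. Endothelial markers in tumor-like nuclei summed to 3025 CPM for untreated tumor 1, against 468 to 835 CPM in the other 7 tumors.

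In the mouse genome (GRCm39, GENCODE M39) Sned1 lies on the plus strand at chr1:93163558-93228787, a span of 65.2 kb, with 12 annotated transcripts and a canonical transcript of 31 exons and 9152 bases. Mterf4 lies on the minus strand, and its annotated span of 77.5 kb (chr1:93156137-93233637) contains the whole of Sned1. This containment comes from 1 of its 11 transcripts, and another overlaps the 3′ end of Sned1 by 1855 bases, so that 1855 exonic bases are shared. The canonical Mterf4 transcript, of 4 exons and 1366 bases (chr1:93228927-93233637), ends 139 bases beyond the canonical end of Sned1. The 2 canonical transcripts therefore meet end to end. Per the study's methods, counting used the default settings of Cell Ranger, which count reads on the strand of the gene. The strand of the counted reads was not checked here.

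The 250 bases upstream of each annotated start are shown because the start sites of the 2 overlapping genes lie at opposite ends of the locus. The Sned1 window lies within the longest Mterf4 transcript. They are written 5′ to 3′ on the strand of the gene, for Sned1 at chr1:93163308-93163557 on the plus strand and for Mterf4 at chr1:93233638-93233887 on the minus strand, and capitals mark a GC box.
Sned1: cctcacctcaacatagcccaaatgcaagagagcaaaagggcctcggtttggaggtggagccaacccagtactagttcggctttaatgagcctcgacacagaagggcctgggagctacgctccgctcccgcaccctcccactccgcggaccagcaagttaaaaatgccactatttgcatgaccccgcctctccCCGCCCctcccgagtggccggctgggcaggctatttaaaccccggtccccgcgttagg
Mterf4: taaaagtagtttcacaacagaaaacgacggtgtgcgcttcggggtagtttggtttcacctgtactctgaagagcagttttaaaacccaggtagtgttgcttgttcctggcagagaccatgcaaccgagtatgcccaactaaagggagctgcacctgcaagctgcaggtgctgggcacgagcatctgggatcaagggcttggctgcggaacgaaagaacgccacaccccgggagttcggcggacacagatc
The Sned1 window had a GC content of 60.4% and 15 CpG dinucleotides, and the Mterf4 window 53.6% and 12, against medians of 52.4% and 6 in the 250 upstream bases of 32536 RefSeq promoters (GRCm38.p6). Both strands were searched for the GC box, spelled GGGCGG. The TATA box was spelled TATAAA. A further promoter element, the CAAT box, was spelled CCAAT. The words of the CIC repressor, the factor whose DNA-binding part is held by the fusion protein, were TGAATGAA, TGAATGGA, TCAATGAA and TCAATGGA. Sned1 had 1 GC box match, on the opposite strand and starting 58 bases before the start site, and Mterf4 had 0. Neither window held the other words. The shares of the RefSeq promoters with at least 1 match were 33.0% for the GC box, 12.3% for the TATA box, 33.8% for the CAAT box and 3.13% for any CIC word.

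Sned1 was highest in fibroblast-like nuclei in 8 of 8 tumors. This order was not tested, since the gene was chosen for its pattern and the classes come from clusters of the same nuclei. In the untreated tumors 1 to 4 the Sned1 level in fibroblast-like nuclei was 552, 609, 669 and 772 CPM, from 3009, 1872, 2959 and 1401 UMIs. In the Minnelide tumors 1 to 4 it was 252, 218, 273 and 188 CPM, from 1165, 584, 802 and 150 UMIs. All 4 untreated tumors were above all 4 Minnelide tumors, with no overlap. The means were 651 ± 94.1 CPM (SD, n = 4) untreated and 232 ± 37.4 CPM (SD, n = 4) with Minnelide, a ratio of 2.80. The fitted log2 fold change, Minnelide against untreated, was -1.44 ± 0.18 (SE, edgeR). Among the 11370 genes tested in these nuclei, 3.33% had every Minnelide tumor below every untreated tumor. Because Sned1 was selected on this contrast, nothing is read from its place among them. Bulk sums of this kind cannot tell fewer nuclei with transcript apart from less transcript per nucleus.

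**Figure D1:**
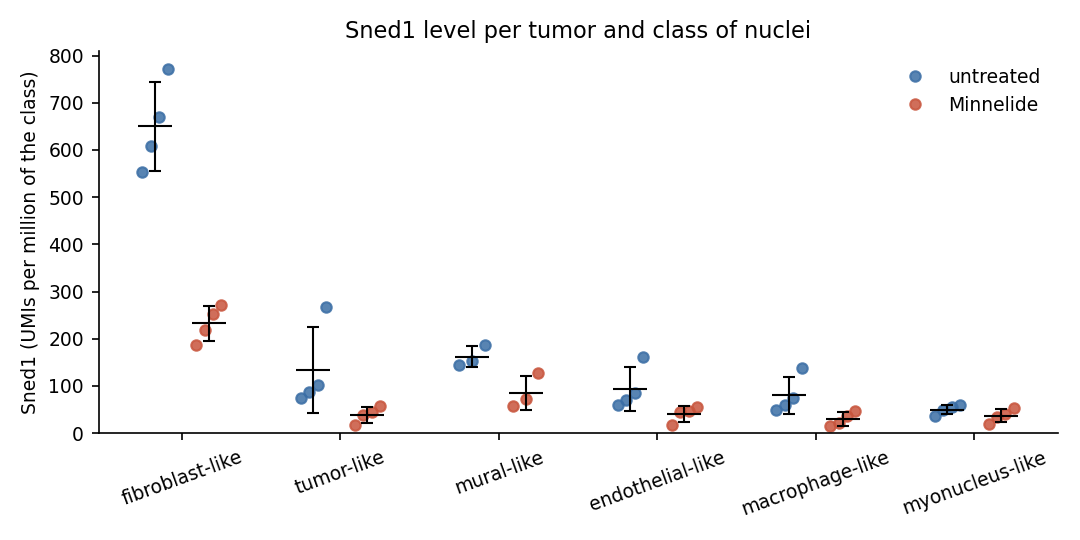
Sned1 level (CPM of the class) in each cell class, 1 point per tumor, with the mean and SD of each group. Fibroblast-like nuclei stood highest in 8 of 8 tumors, and Minnelide points lay below untreated points without overlap in every class shown apart from myonucleus-like nuclei. The order of classes is a description. The classes share tumors, so their differences are not independent of that in fibroblast-like nuclei.

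The share of fibroblast-like nuclei with at least 1 Sned1 UMI was compared at an equal depth, after each nucleus was thinned to 1000 UMIs. In the untreated tumors 1 to 4 this share was 31.9%, 27.2%, 31.9% and 33.6%. In the Minnelide tumors 1 to 4 it was 15.96%, 15.02%, 19.9% and 14.4%, below all untreated tumors. These shares come from the same Sned1 UMIs on which the gene was selected, so they restate that difference on another scale. Without thinning, the shares were 60.6%, 48.0%, 50.2% and 45.3% untreated and 41.6%, 28.6%, 47.3% and 26.6% with Minnelide, and the groups overlapped. Macrophage-like nuclei, which are of hematopoietic origin and not a usual source of this matrix protein, gave thinned shares of 5.03% to 14.2% untreated and 2.14% to 4.86% with Minnelide. The share in fibroblast-like nuclei was therefore above that of macrophage-like nuclei of the same group in both groups.

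The Minnelide matrices also carry a word on treatment response in their names, which the labels do not give. No test was made by this word, and the values are only listed. Minnelide tumors 1 and 2, with the word for a responder, had 252 and 218 Sned1 CPM in fibroblast-like nuclei. Minnelide tumors 3 and 4, with the word for a nonresponder, had 273 and 188 CPM. In tumor-like nuclei the Sned1 values were 39.4 and 44.4 CPM for the former, and 56.8 and 16.7 CPM for the latter. The values of the latter enclosed those of the former in both classes.

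Other cell markers were read in the same fibroblast-like nuclei. The summed level of the 9 tumor cell markers was 2341 to 4757 CPM untreated and 4776 to 9969 CPM with Minnelide, with no overlap. All 9 had a higher mean with Minnelide, Etv1 and Vgf did so without overlap, and 0 of the 9 were at zero in every tumor. Of the 11370 genes tested, 52.6% had a negative fitted log2 fold change. The share of all genes with every Minnelide tumor above every untreated tumor was not computed. Sned1 was lower in the group where the tumor cell markers were higher, and their part in the Sned1 difference was not tested. The summed level of the 12 fibroblast markers was 10211 to 24590 CPM untreated and 10867 to 21097 CPM with Minnelide, so the groups overlapped. Of these 12, 4 had a higher mean with Minnelide. In 1 of the 12 every Minnelide tumor was below every untreated tumor, as for 3.33% of the 11370 genes tested. The sums of the mural markers (495 to 1503 and 462 to 741 CPM) and of the myonucleus markers (1645 to 10391 and 495 to 5981 CPM) overlapped too. Of the 8 mural markers with a feature, 2 had a higher mean with Minnelide, and 0 of the 13 myonucleus markers had. The same held for 5 of 11 endothelial, 2 of 11 macrophage and 0 of 8 osteoclast markers, and the sums of these lists overlapped as well.

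Within fibroblast-like nuclei the Sned1 difference was present in the cluster that 7 tumors shared. There Sned1 stood at 613, 657 and 772 CPM in untreated tumors 2 to 4, and at 252, 218, 273 and 188 CPM in Minnelide tumors 1 to 4. Without untreated tumor 1 the log2 fold change was -1.53 over all fibroblast-like nuclei. The difference was thus as large without the tumor that formed its own cluster.

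Fibroblast-like nuclei of each tumor were next divided into interstitial, matrix and other states by marker genes, with Sned1 and Mterf4 left out of the clustering. The interstitial markers, such as Pi16 and Dpp4, are those of resident stromal cells, and the matrix markers, such as Postn and Tnc, are those of fibroblasts that lay down matrix. A state was named from markers raised relative to all fibroblast-like nuclei of the same tumor, so the name is not an absolute level. In the matrix state Sned1 stood at 614, 494, 1016 and 1911 CPM in the untreated tumors and at 348, 258, 472 and 352 CPM in the Minnelide tumors. Every untreated tumor was above every Minnelide tumor in this state (1009 ± 641 and 357 ± 87.9 CPM, SD, n = 4). These nuclei are part of the fibroblast-like nuclei on which Sned1 was selected, so this is a description. The share of all genes that separate the groups in this state was not computed. In the interstitial state Sned1 stood at 819, 336, 342 and 406 CPM untreated and at 368, 439, 190 and 247 CPM with Minnelide. These values overlapped, with means of 476 ± 231 and 311 ± 113 CPM (SD, n = 4). The untreated mean rests on untreated tumor 1, and the other 3 untreated tumors lay within the Minnelide range. In the remaining nuclei Sned1 stood at 235, 743, 471 and 633 CPM untreated and at 139, 125, 298 and 68.5 CPM with Minnelide, where only untreated tumor 1 fell within the Minnelide range. Sned1 was higher in the matrix than in the interstitial state in 5 of 8 tumors, so the states had no common order.

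**Figure D2:**
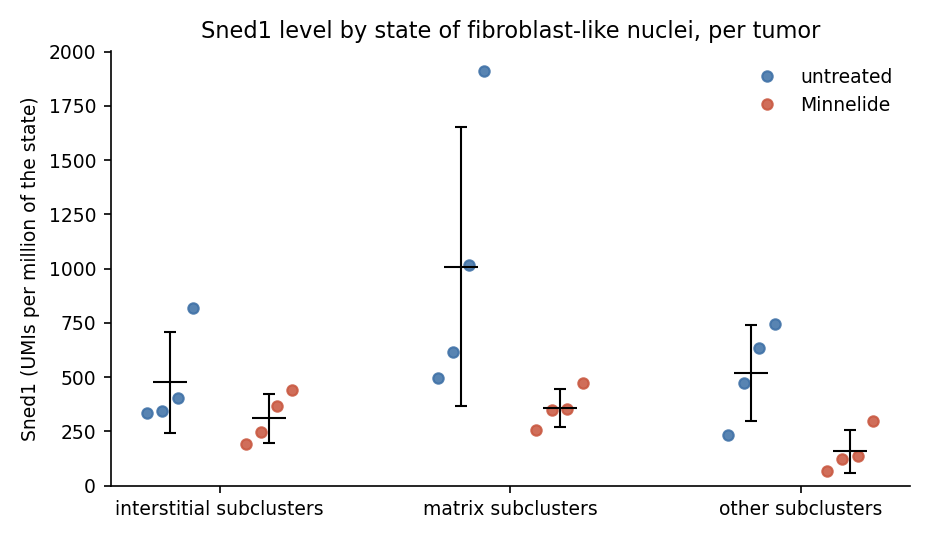
Sned1 level (CPM) in the interstitial, matrix and other states of fibroblast-like nuclei, 1 point per tumor, with the mean and SD of each group. The untreated and Minnelide points were separate in the matrix state and overlapped in the other 2 states.

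Of the make-up of the fibroblast-like class, the interstitial share alone was tested, and it was not shown to differ between the groups. Interstitial nuclei made up 22.5%, 15.99%, 12.8% and 33.6% of fibroblast-like nuclei in the untreated tumors and 19.8%, 22.5%, 47.3% and 20.2% in the Minnelide tumors. The name is weak in Minnelide tumor 3, whose interstitial subclusters had a mean marker log2 fold of 0.27 and 0.24. In the other tumors it was 0.62 to 1.81. Interstitial nuclei of Minnelide tumor 3 held these markers at 503 CPM, below the 951 CPM in matrix nuclei of untreated tumor 1. The difference of 6.24 percentage points (21.2 ± 9.17% and 27.5 ± 13.3%, SD, n = 4) had a p of 0.486 by the exact two-sided permutation test over 70 assignments. Without Minnelide tumor 3 the difference was -0.37 points (exact permutation p = 0.971).

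Tumor-like nuclei, the class with raised CIC::DUX4 target genes, had Sned1 at lower levels, and at very different ones among untreated tumors. Sned1 stood at 268, 86.5, 73.6 and 103 CPM in the untreated tumors and at 39.4, 44.4, 56.8 and 16.7 CPM in the Minnelide tumors. All untreated tumors were above all Minnelide tumors, with untreated tumor 1 far above the rest, and 5.33% of the 12919 genes tested separated the groups in this direction. The log2 fold change was -1.56 ± 0.46 (SE) with a 95% interval of -2.61 to -0.51, and the adjusted p was 0.614 by edgeR and 0.108 by DESeq2. Sned1 was therefore not called in tumor-like nuclei. Leaving out untreated tumor 1 gave a log2 fold change of -1.08. At a depth of 1000 UMIs, 21.3% of tumor-like nuclei of untreated tumor 1 had a Sned1 UMI, against 7.57% to 8.36% in the other untreated tumors and 1.65% to 5.20% in the Minnelide tumors. In untreated tumor 4 this rests on the 2677 of 8414 tumor-like nuclei that reached 1000 UMIs. Most of that class in untreated tumor 4 was a cluster of 6294 nuclei with a median of 752 UMIs, named narrowly, with a mean log2 fold of 2.13 for tumor markers and 1.71 for myonucleus markers.

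In mural-like nuclei, the pericytes and smooth muscle cells of vessels, Sned1 was measured in 3 tumors of each group, since untreated tumor 1 had 0 such nuclei and Minnelide tumor 4 had 13, under the minimum of 20. Sned1 stood at 145, 153 and 188 CPM in untreated tumors 2 to 4 and at 58.4, 72.5 and 127 CPM in Minnelide tumors 1 to 3. The groups did not overlap, as for 5.65% of the 5435 genes tested. The Sned1 log2 fold change was -0.93 ± 0.32 (SE), with an interval of -1.67 to -0.18 and an edgeR adjusted p of 0.901. In Minnelide tumor 1 these nuclei held mural markers at 1006 CPM, against 4689 to 5570 CPM in the other 5 tumors, and tumor markers at 17211 CPM, against 4856 to 8729 CPM. Without that tumor the log2 fold change was -0.63, and at a clustering resolution of 0.5 it was -0.45. These levels rest on few UMIs, 124 untreated and 467 with Minnelide, and 399 of the latter came from Minnelide tumor 1. At a depth of 1000 UMIs the share of mural-like nuclei with a Sned1 UMI was 12.43% to 14.999% untreated and 7.002% to 12.46% with Minnelide, so that the groups overlapped on this scale.

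In endothelial-like nuclei, the lining cells of vessels, Sned1 stood at 161, 59.2, 70.1 and 84.9 CPM untreated and at 45.1, 55.2, 46.5 and 16.6 CPM with Minnelide. The groups did not overlap, as for 3.73% of the 9428 genes tested, and untreated tumor 1 was again highest. The Sned1 log2 fold change was -1.15 ± 0.39 (SE, interval -2.02 to -0.28), with an adjusted p of 0.410 by edgeR. Leaving out untreated tumor 1 gave -0.79. Tumor markers in these nuclei summed to 14001 and 11951 CPM in Minnelide tumors 1 and 3, against 2214 to 6612 CPM untreated. Endothelial markers summed to 3372 and 4272 CPM in the same 2 tumors, against 6437 to 8676 CPM untreated, and the part of these in the Sned1 values was not tested. The share with a Sned1 UMI at 1000 UMIs was 5.25% to 12.7% untreated and 2.09% to 5.69% with Minnelide, again with overlap.

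In macrophage-like nuclei Sned1 stood at 48.1, 59.2, 75.0 and 137 CPM untreated and at 21.2, 47.7, 35.5 and 14.6 CPM with Minnelide, from 126 and 42 UMIs in all. The lowest untreated tumor lay just above the highest Minnelide tumor, and 1.37% of the 7082 genes tested separated the groups in this direction. The log2 fold change was -1.18 ± 0.42 (SE, interval -2.11 to -0.25), with an adjusted p of 1.000 by edgeR.

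In myonucleus-like nuclei, the nuclei of muscle fibers, Sned1 stood at 36.9, 59.0, 54.6 and 50.01 CPM untreated and at 33.7, 41.6, 52.7 and 20.1 CPM with Minnelide. These values overlapped, while 1.23% of the 10490 genes tested separated the groups with Minnelide lower. The log2 fold change was -0.48 ± 0.32 (SE), and its interval of -1.18 to 0.23 included 0 (edgeR adjusted p = 0.824). It was -0.07 at a clustering resolution of 0.5 and -0.25 without Minnelide tumor 4. Whether the Sned1 difference itself differed between classes was not tested. The classes come from the same tumors, so these differences are not independent of that in fibroblast-like nuclei.

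**Figure D3:**
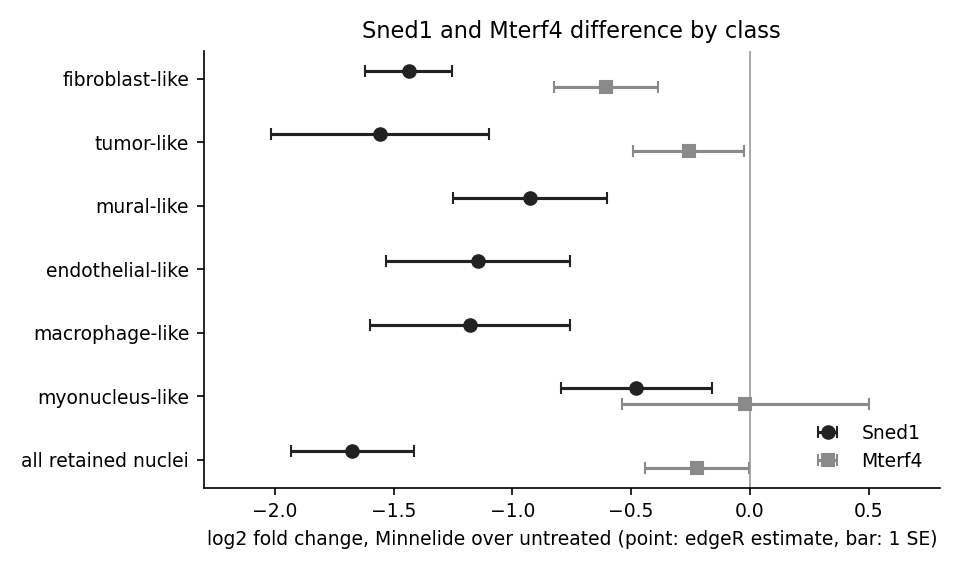
Fitted log2 fold change of Sned1 and Mterf4, Minnelide against untreated, in each class where it passed the low-count filter, as the edgeR estimate with a bar of 1 SE. Sned1 lay below 0 in every row, nearest to it in myonucleus-like nuclei (-0.48), and Mterf4 lay nearer to 0 than Sned1 in each of the 4 rows that hold both.

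The edgeR test called no gene in any class at an adjusted p under 0.05, and percent called was 0% in fibroblast-like, tumor-like, mural-like, endothelial-like, macrophage-like and myonucleus-like nuclei and in all retained nuclei. The counts of genes at an unadjusted p under 0.05 were 857, 1014, 247, 1084, 276, 555 and 1376 in the same order. DESeq2 called 44, 85, 2, 39, 0, 0 and 183 genes.

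Over all retained nuclei, in which the cell classes take different shares, Sned1 stood at 266, 160, 206 and 173 CPM untreated and at 58.1, 60.8, 74.6 and 32.5 CPM with Minnelide. The groups did not overlap, as for 6.95% of the 13804 genes tested. A log2 fold change of -1.67 ± 0.26 (SE) was fitted, given without a test because the fibroblast-like nuclei are among these nuclei.

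The order of Sned1 levels below fibroblast-like nuclei was less regular. In the untreated group the means were 162 ± 22.5 CPM in mural-like (SD, n = 3), 133 ± 91.1 in tumor-like, 93.7 ± 45.9 in endothelial-like, 79.9 ± 39.8 in macrophage-like and 50.1 ± 9.54 CPM in myonucleus-like nuclei (SD, n = 4). Each neighbor in this order differed by less than the larger of the 2 SDs. With Minnelide the mean was 85.9 ± 36.1 CPM in mural-like nuclei (SD, n = 3). It was 40.8 ± 16.7 in endothelial-like, 39.3 ± 16.8 in tumor-like, 37.0 ± 13.7 in myonucleus-like and 29.7 ± 14.8 CPM in macrophage-like nuclei (SD, n = 4). The last 4 of these lay within 1 SD of each other.

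RNA freed from broken nuclei adds the genes of abundant cells to all nuclei, so Sned1 outside fibroblast-like nuclei was read beside the fibroblast markers. Each was expressed as a percent of its level in the fibroblast-like nuclei of the same tumor. In tumor-like nuclei of untreated tumor 1, Sned1 reached 48.6% of its fibroblast-like level and the fibroblast marker sum 17.2%. In tumor-like nuclei of the other 7 tumors, Sned1 reached 8.91% to 20.8% and the marker sum 12.4% to 26.6%. The Sned1 percent exceeded the marker percent in 2 of 8 tumors for tumor-like, 1 of 6 for mural-like, 2 of 8 for endothelial-like, 0 of 8 for macrophage-like and 1 of 8 for myonucleus-like nuclei. In most tumors Sned1 outside fibroblast-like nuclei was thus no higher, relative to that class, than the fibroblast markers were. The source of these markers in the other classes was not tested, and their percent reached 68.7% in mural-like nuclei of Minnelide tumor 3. These levels therefore cannot tell RNA from broken nuclei apart from expression in those classes, and neither was shown.

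**Figure D4:**
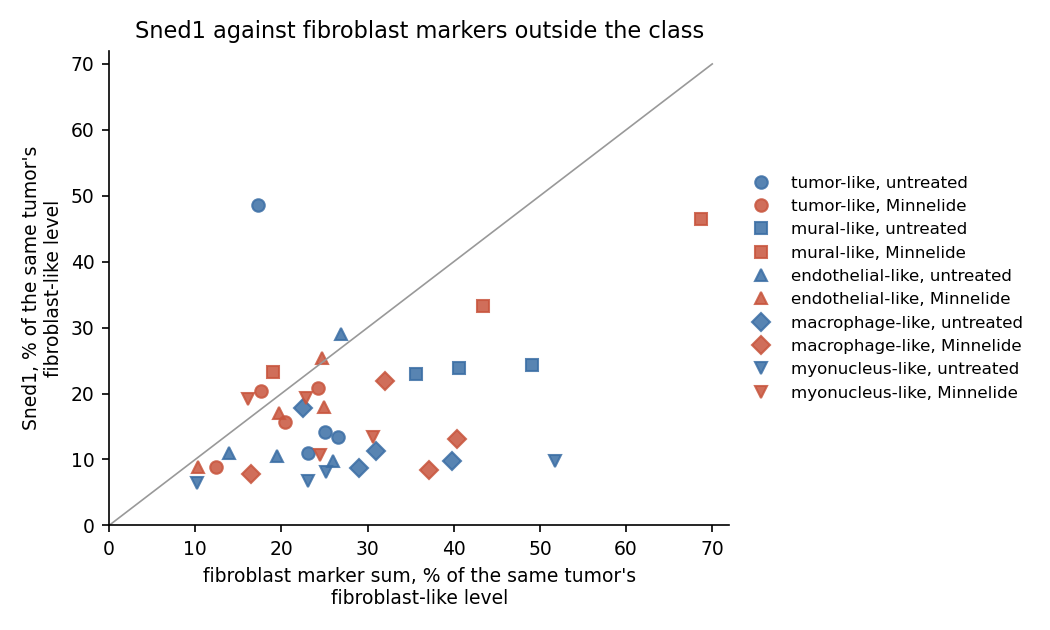
Sned1 level in a class as a percent of that in fibroblast-like nuclei of the same tumor, against the same percent for the summed fibroblast markers, 1 point per tumor and class. The line marks equality. Most points lie below it, and the tumor-like nuclei of untreated tumor 1 lie above it at 48.6% against 17.2%.

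Mterf4 was detected at low levels in every class. In fibroblast-like nuclei it stood at 21.1, 16.9, 12.0 and 13.8 CPM untreated and at 10.8, 10.1, 10.2 and 8.76 CPM with Minnelide, from 7 to 115 UMIs per tumor. The untreated tumors were all above the Minnelide tumors, as for Sned1 (15.9 ± 4.00 and 9.96 ± 0.862 CPM, SD, n = 4). Of the 11370 genes tested, 3.33% separated the groups in this direction. The log2 fold change was -0.61 ± 0.22 (SE, interval -1.10 to -0.11) with an adjusted p of 0.625 by edgeR, so Mterf4 was not called. Without untreated tumor 1 it was -0.47. Whether the 2 genes differed in their change was not tested.

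In tumor-like nuclei Mterf4 stood at 17.5, 9.56, 9.13 and 9.31 CPM untreated and at 8.21, 9.95, 9.21 and 6.63 CPM with Minnelide. The groups overlapped and the log2 fold change was -0.26 ± 0.23 (SE, edgeR adjusted p = 0.752). Untreated tumor 1 was the highest tumor for Mterf4 as it was for Sned1, and without it the log2 fold change was -0.06. In myonucleus-like nuclei the log2 fold change of Mterf4 was -0.02 ± 0.52 (SE, edgeR adjusted p = 0.999), and over all retained nuclei it was -0.22 ± 0.22 (SE, edgeR adjusted p = 0.730). Without untreated tumor 1 these values were 0.16 and -0.03. Mterf4 did not pass the low-count filter in mural-like, endothelial-like or macrophage-like nuclei, where a tumor held 0 to 54 Mterf4 UMIs.

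The other genes around Sned1 were examined in fibroblast-like nuclei. Within 200 kb, 23 genes are annotated, 11 of them protein-coding, and 11 including Sned1 had a feature. Of the 10 neighbors, 7 passed the low-count filter, 3 had an unadjusted p under 0.05, as had 857 of all 11370 genes tested, and 0 were called by edgeR. The 3 were Mterf4, Crocc2 and Kif1a, each with lower levels under Minnelide.

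Crocc2, a gene for a ciliary rootlet protein that ends upstream of Sned1 on the same strand and starts 67.3 kb before it, stood at 6.97, 11.1, 9.04 and 11.0 CPM untreated and at 2.81, 2.61, 1.70 and 0 CPM with Minnelide. Its log2 fold change was -2.11 ± 0.45 (SE), with an adjusted p of 0.561 by edgeR and 0.017 by DESeq2. Kif1a, a kinesin motor gene on the other strand, stood at 4.96, 6.18, 9.27 and 4.41 CPM untreated and at 1.94, 1.87, 1.70 and 1.25 CPM with Minnelide (log2 fold change -1.76 ± 0.36, SE, edgeR adjusted p = 0.561). Both genes were far below Sned1 in UMIs and separated the groups as Sned1 did, as did 3.33% of the 11370 genes tested. Beyond Mterf4, the log2 fold changes were 0.30 ± 0.40 for Pask, -0.16 ± 0.22 for Ppp1r7, 0.06 ± 0.16 for Hdlbp and 0.13 ± 0.23 for Sept2 (SE). Agxt, Mab21l4 and Ano7 were below 1 CPM on average and did not pass the filter. In tumor-like nuclei 0 of the 6 neighbors tested had an unadjusted p under 0.05, and 0 were called by edgeR.

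**Figure D5:**
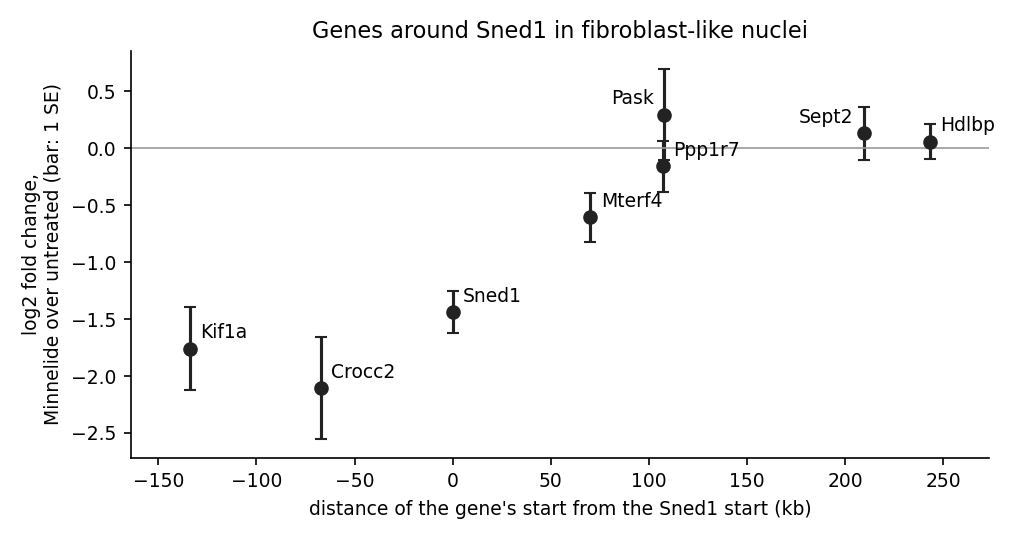
Log2 fold change (Minnelide against untreated, bar of 1 SE) in fibroblast-like nuclei of the genes within 200 kb of Sned1, by distance of their start from the Sned1 start in kb. Sned1 (-1.44), Crocc2 (-2.11), Kif1a (-1.76) and Mterf4 (-0.61) lay below 0, and the 4 tested genes beyond Mterf4 lay between -0.16 and 0.30.

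The 2 nidogen genes, which share the NIDO domain with Sned1, showed no such decrease in mean beyond the spread. Nid1 in fibroblast-like nuclei had means of 111 ± 83.2 CPM untreated and 103 ± 13.7 CPM with Minnelide (SD, n = 4), with a log2 fold change of -0.05 ± 0.39 (SE). Nid2 stood at 29.5, 45.5, 58.1 and 77.2 CPM untreated and at 160, 51.5, 135 and 105 CPM with Minnelide. The Nid2 values overlapped, with a log2 fold change of 1.15 ± 0.39 (SE, edgeR adjusted p = 0.625), in the direction opposite to Sned1.

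Matrix gene lists gave the setting of the Sned1 difference in fibroblast-like nuclei. The median log2 fold change was -0.02 over all 11370 genes tested, of which 407 had higher and 450 lower levels at an unadjusted p under 0.05. Among 52 ECM glycoproteins tested, the family to which Sned1 belongs, the median was -0.03, with 5 higher and 1 lower at that p. The medians were 0.09 over 19 basement membrane genes (5 higher, 0 lower), 0.36 over 9 integrins (3 higher, 0 lower), -0.12 over 11 fibrillar collagens (1 higher, 0 lower) and 0.04 over 13 genes of the TGF-beta pathway (0 in either direction). The edgeR test called 0 genes of these lists, and DESeq2 called Pxdn among the glycoproteins and Col4a5 and Col4a6 among the basement membrane genes.

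The glycoprotein with the smallest p among those lower was Emilin2, an elastic fiber-associated protein. It stood at 37.5 ± 8.38 CPM untreated and 20.03 ± 7.18 CPM with Minnelide (SD, n = 4). Its log2 fold change of -0.88 ± 0.26 (SE, edgeR adjusted p = 0.612) was nearer 0 than that of Sned1. Pxdn, a peroxidase that crosslinks collagen IV, had the smallest p among those higher, at 91.8 ± 7.96 and 132 ± 10.9 CPM (log2 fold change 0.57 ± 0.12, SE, edgeR adjusted p = 0.561, DESeq2 adjusted p = 0.035). Col4a5, a collagen IV chain of basement membranes, stood at 65.9, 94.9, 90.4 and 85.4 CPM untreated and at 224, 211, 269 and 209 CPM with Minnelide, the reverse of the Sned1 order and without overlap. Its edgeR adjusted p was 0.143. Col4a5 was named for the smallest p among the higher genes of its list. The share of all genes that separate the groups with Minnelide higher was not computed. Itga8, an integrin chain that binds matrix ligands, stood at 41.7, 105, 142 and 147 CPM untreated and at 279, 239, 227 and 199 CPM with Minnelide (log2 fold change 1.15 ± 0.36, SE, edgeR adjusted p = 0.612). Both genes were more abundant in tumor-like than in fibroblast-like nuclei on average in each group.

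Among the others so named, the log2 fold changes in fibroblast-like nuclei were -0.42 for the laminin chain Lama5, -0.24 for the integrin Itgb5, -0.26 for the ligand Tgfb1, 0.19 for the signal transducer Smad4, -1.64 ± 0.80 for Col11a2 and 1.39 ± 0.61 (SE) for Col2a1. Each of these 6 had an edgeR adjusted p above 0.05. In tumor-like nuclei the list medians were -0.03 for glycoproteins, 0.17 for basement membrane genes, 0.35 for integrins, -0.33 for fibrillar collagens and -0.14 for the TGF-beta pathway, beside 0.01 over all genes tested, and 0 genes of the lists were called by edgeR or DESeq2. Their counts at an unadjusted p under 0.05, higher and lower, were 3 and 4, 0 and 0, 1 and 0, 0 and 1, and 0 and 3, beside 234 and 780 over the 12919 genes tested.

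The genes most like Sned1 over the 46 sums of tumor and class, by Pearson's r of log2(CPM + 1) among 7617 genes, were Csmd1 (r = 0.855), Smoc1 (0.839), Slc39a14 (0.827), Fam20a (0.823), Col8a1 (0.819), Glis3 (0.818), Lurap1l (0.817) and Sulf1 (0.814). Mterf4 had an r of 0.417. The 46 sums share tumors, libraries and class markers, and the values are descriptions. Csmd1, a gene for a large membrane protein with sushi domains, stood at 3328, 2857, 2608 and 2771 CPM in fibroblast-like nuclei untreated and at 969, 1795, 1085 and 1315 CPM with Minnelide. It shared with Sned1 both the highest level in fibroblast-like nuclei and the lower values under Minnelide (log2 fold change -1.11 ± 0.23, SE, edgeR adjusted p = 0.561, DESeq2 adjusted p = 0.002). For Smoc1, Slc39a14, Fam20a, Lurap1l, Glis3, Sulf1 and Col8a1 the groups overlapped in fibroblast-like nuclei, with log2 fold changes from -0.53 to 0.57.

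Over the 8 tumors within fibroblast-like nuclei alone, the genes most like Sned1 among 4229 were Zbtb1, Lats1, Rufy3, Mob2, Zcchc24 and Mff, with r from 0.920 to 0.953, and Mterf4 had 0.744. The 8 tumors fall into the 2 treatment groups for Sned1, so these values largely restate the group difference. Each of the 6 genes had every untreated tumor above every Minnelide tumor, as for 3.33% of the 11370 genes tested. Their log2 fold changes ran from -0.84 for Zcchc24 to -0.18 for Mff, all nearer 0 than that of Sned1.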

How the data were processed

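Nuclei from 8 tumors were profiled with a Chromium 3′ kit with on-chip multiplexing. The deposited values were raw UMI counts for each gene in each nucleus. The authors obtained them with Cell Ranger (7.0.1 per the labels, 9.0.1 per the file headers) on mm39 with intronic reads included, after bcl2fastq 2.20. The deposited barcode and feature lists carry names only. The methods name default parameters, and the annotation behind the 19059 features is not given in the sources used here. There were 0 columns of samples outside the series.

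Sned1, Mterf4, the gene lists, markers and tests were chosen with earlier results of these data known, and the genes were named by rule: Sned1, Mterf4, neighbors within 200 kb, Nid1, Nid2, the genes most like Sned1, and in each list those called or with the smallest p in each direction.

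Nuclei with under 200 genes, a compromised-nucleus posterior of at least 0.75 (mitochondrial percent against genes), or a Scrublet score in the top 0.8% per 1000 nuclei were removed. Clustering used scanpy 1.11.5 and igraph 0.11.9 (2000 variable genes, 30 components, 40 neighbors, resolution 1.0). A cluster was named where at least 3 markers were raised 1.5-fold and present in 5% of nuclei, with a margin of 0.4 (mean log2) over the next class. That margin was added after clusters and markers, but no Sned1 value, had been seen. UMIs were summed per tumor and class (at least 20 nuclei) and tested with edgeR 4.0.16 (TMM, filterByExpr, quasi-likelihood, R 4.3.3), with Benjamini-Hochberg adjustment over all genes tested. DESeq2 1.42.0 was the alternative tool. The test was checked on simulated counts. Other alternatives were RLE size factors, no low-count filter, doublets kept, no mitochondrial filter, nuclei of at least 1000 UMIs, resolution 0.5, stricter and looser naming, and each tumor left out. Intervals cover the spread between tumors, and levels of under 100 UMIs are imprecise.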

Additional observations from a re-analysis of the deposited data

Results flagged for a closer look

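In groups of 4 tumors, 32 sets of values were examined with Dixon's ratio for a value that stands away from its group, and 4 did, where chance alone gives about 1 in 20 groups (5%). In tumor-like nuclei, untreated tumor 1 had a Sned1 level of 268 CPM, against 73.6 to 103 CPM in the other untreated tumors. In the same nuclei of untreated tumor 1 the Mterf4 level was 17.5 CPM, against 9.13 to 9.56 CPM in the others. In interstitial fibroblast-like nuclei, untreated tumor 1 had a Sned1 level of 819 CPM, against 336 to 406 CPM in the others. Interstitial nuclei made up 47.3% of fibroblast-like nuclei in Minnelide tumor 3, against 19.8% to 22.5% in the other Minnelide tumors. In Minnelide tumor 3 the interstitial name rests on weakly raised markers. No explanation was tested for these 4 values. The 3 values of untreated tumor 1 come from the tumor whose fibroblast-like nuclei formed a cluster of their own.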

How the results depend on the processing

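The Sned1 log2 fold change in fibroblast-like nuclei lay between -1.44 and -1.26 under the 7 other settings that gave a value, and between -1.54 and -1.33 with each tumor left out. It was -1.84 ± 0.31 (SE) when clusters without a margin were given to the class whose markers were raised most, an alternative chosen after seeing the data. Sned1 stayed negative and uncalled in the other classes, with leave-one-out ranges of -1.79 to -1.08 in tumor-like, -1.28 to -0.63 in mural-like, -1.31 to -0.79 in endothelial-like, -1.51 to -0.93 in macrophage-like and -0.63 to -0.25 in myonucleus-like nuclei, and stayed negative at -1.83 to -1.48 over all retained nuclei. Under the other settings Sned1 moved by over 1.5 times in mural-like nuclei with doublets kept (-0.56) and at resolution 0.5 (-0.45), and in myonucleus-like nuclei with at least 1000 UMIs (-0.31), with stricter naming (-0.24), at resolution 0.5 (-0.07) and with looser naming (-0.87). Mterf4 ranged from -0.71 to -0.47 in fibroblast-like, -0.34 to -0.06 in tumor-like, -0.62 to 0.16 in myonucleus-like and -0.32 to -0.03 in all retained nuclei. Mterf4 in myonucleus-like nuclei, near 0 throughout, turned positive with doublets kept (0.31), without the mitochondrial filter (0.032), at resolution 0.5 (0.29), with stricter naming (0.16), and without untreated tumor 1 (0.16), Minnelide tumor 3 (0.13) or Minnelide tumor 4 (0.12), and the cause was not tested. The interstitial share differed by 5.64 points with doublets kept, 1.80 at resolution 0.5, and -0.37 to 10.4 with each tumor left out, the negative value without Minnelide tumor 3. DESeq2 called 3 genes of the lists in fibroblast-like nuclei where edgeR called 0. In fibroblast-like nuclei edgeR called 3 genes without untreated tumor 1 and 0 without each other tumor; without Minnelide tumor 2 it called 1 gene in mural-like and 1 in all retained nuclei. Stricter naming left only the myonucleus-like class, resolution 0.5 left no macrophage-like fit, and Mterf4 failed the filter in mural-like, endothelial-like and macrophage-like nuclei, so those values were not obtained. No paired analysis was possible because the labels carry no replicate numbers. Depth limits the classes with under 100 Sned1 UMIs per tumor, where a difference may not have been detectable.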

Other observations

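Sned1 was also read in nuclei outside the 6 classes compared. In the nuclei left unnamed, whose clusters had raised markers of several classes, Sned1 stood at 210, 161, 237 and 223 CPM in the untreated tumors and at 87.8, 81.7 and 53.8 CPM in Minnelide tumors 1, 3 and 4, with no overlap, while Minnelide tumor 2 had 5 such nuclei and 0 Sned1 UMIs. In the 677 osteoclast-like nuclei, the multinucleated bone-resorbing lineage, Sned1 averaged 43.2 ± 21.7 CPM untreated and 36.2 ± 14.7 CPM with Minnelide (SD, n = 4), and the groups overlapped. The osteoclast-like levels rest on 80 and 36 UMIs in all, and neither set of values was tested. The share of all genes that separate the groups in the unnamed nuclei was not computed.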
